A study of Homo sapiens with 17 samples.

Results

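The genes described here are 35 named subunits, inhibitors, regulators and targets of the transcription factor NF-kB, read out by RNA sequencing in 2 diffuse large B cell lymphoma lines, Karpas-422 and WSU-DLCL2. They were chosen by name, with earlier results of these data known. Their symbols were matched to the Ensembl identifiers of the count files, which hold 63677 genes each. A count was available for 33 of the 35. CCL3 and CCL4 are not analysed here because no identifier was matched to them, and IL6 had a count of 0 in all 15 libraries.

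NF-kB is a family of dimeric transcription factors built from REL-homology proteins. Inhibitors of the IkB family hold the dimers in the cytoplasm until the IKK kinase marks them for destruction, and in the noncanonical route MAP3K14 drives the processing of the NFKB2 precursor, which pairs with RELB. The genes of several inhibitors and subunits are themselves textbook targets, so the pathway feeds back on its own components. In B cells NF-kB is known for survival and activation genes, and its activity sets the activated B-cell-like type of diffuse large B cell lymphoma apart from the germinal centre type.

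The 15 libraries form 5 groups of 3. Karpas-422 cells were treated with A-485 for 48 hours or were controls. Controls of both lines are called untreated here because their titles name no treatment, and they may have received the vehicle DMSO. A-485 is a catalytic inhibitor of the paralogous acetyltransferases EP300 and CREBBP, which serve as coactivators of NF-kB among many other factors. WSU-DLCL2 was sampled after 48 hours of A-485, as 3 clones labelled BCL11AKO, and untreated. BCL11A encodes a zinc-finger transcription factor expressed in B cells and known as a repressor in erythroid cells. No label says how the clones were made, whether the untreated cells were parental or clonal, or whether replicates came from separate cultures, so p-values measure the spread between these samples, which may be technical. Beyond their labels the clones are called labelled clones here, because BCL11A itself does not set them apart. It stood at 58.8, 69.6 and 51.9 CPM (read counts scaled to a common library total) in labelled clones 1 to 3, against 46.8, 45.7 and 73.5 CPM in untreated WSU-DLCL2 replicates 1 to 3. The groups overlap, and counts per gene do not show whether an exon was deleted.

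Depth and library kind differ along the groups. The 9 libraries of Karpas-422 and of WSU-DLCL2 with A-485 held 6689320 to 8897051 counts in genes, and 43.0% to 55.5% of their reads had no unique alignment. The 6 libraries of the labelled clones and of untreated WSU-DLCL2 held 21233752 to 37286727 counts, and 7.73% to 9.24% of their reads had no unique alignment. WSU-DLCL2 with A-485 therefore has no untreated counterpart of its own kind, and its levels are given beside the Karpas-422 libraries alone. The summed level of 10 B-lineage markers was 3189 to 11798 CPM in every library, with none of them at 0 in any group. Of 9 myeloid markers the sum did not exceed 8.47 CPM. Of 9 T and NK cell markers it was 549 to 588 CPM in Karpas-422 with A-485 and 637 to 682 CPM in untreated Karpas-422, with CD2, CD8A, GNLY and PRF1 at 0 in both, and at most 18.2 CPM in WSU-DLCL2 libraries. Of 8 fibroblast, endothelial and epithelial markers it was 177 to 193 CPM in Karpas-422 with A-485 and 381 to 428 CPM in untreated Karpas-422, and 21.1 to 65.2 CPM in the labelled clones and 14.1 to 23.4 CPM in untreated WSU-DLCL2. In the clones and in both Karpas-422 groups 7 of these 8, collagen and keratin genes among them, were at 0, and DCN alone was not. The part of these transcripts in the results was not tested.

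Untreated WSU-DLCL2 replicate 3 stands apart from replicates 1 and 2, and its labels conflict. Its title names no treatment while its treatment entry names A-485, and its 3 sequencing runs share 1 count file. Over genes, the mean chi-square between replicates was 2.66 for untreated replicates 1 and 2, against 201 and 212 for replicate 3 set against each of them. Between labelled clones it ran between 20.3 and 40.9. Each comparison of the labelled clones is therefore given without and with replicate 3. That this library resembles the clones in NF-kB genes was known when it was left out, so the calls made without it are not independent of that choice.

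Set against untreated replicates 1 and 2, 9 NF-kB genes passed the test in the labelled clones, and all 9 were lower. They are the subunit genes NFKB1 and NFKB2, the inhibitors NFKBIA and TNFAIP3, the survival genes BIRC3 and BCL2A1, and the surface and secreted targets CD83, ICAM1 and EBI3. Of the 33 genes with a count, 31 had enough counts to be tested, and 22 of those did not pass at an adjusted p of 0.05 (edgeR's quasi-likelihood test, Benjamini-Hochberg adjustment over 16607 genes). Among all genes tested, 2.11% passed, of which 1.69% of genes were lower and 0.422% higher. The median log2 fold change was -0.56 over the 31 genes and 0.02 over all genes, and 25 of the 31 lay below 0. The 3 labelled clones did not overlap the 2 untreated replicates in 24 of the 31 genes, against 40.5% of all genes tested. In bulk RNA, fewer cells that express a gene and less RNA of it per cell cannot be told apart. The calls rest on both untreated replicates and were lost with either of them left out, where a lone untreated library remains. With labelled clone 2 left out, 18 NF-kB genes were called lower and 1 higher. Calls then rose among all genes too, to 3020 of 16221, with 1462 higher and 1558 lower.

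The subunit genes did not move as 1 group. NFKB1, whose precursor yields a DNA-binding subunit without an activation domain, had 146, 135 and 143 CPM in the labelled clones, against 210.3 and 205 CPM in untreated replicates 1 and 2. The log2 fold change was -0.56 ± 0.07 (SE; edgeR adjusted p = 0.0232), the smallest of the 9 calls. NFKB2, the precursor gene of the noncanonical route, had 36.2, 51.2 and 33.0 CPM in the labelled clones, against 112 and 109 CPM in the untreated replicates. It fell by 1.47 ± 0.17 on the log2 scale (SE; edgeR adjusted p = 0.0188), and every clone was below both untreated values. RELB, the partner of the NFKB2 product, had 15.5, 29.4 and 14.6 CPM in the labelled clones, against 45.6 and 50.4 CPM. Its log2 fold change of -1.29 ± 0.30 (SE) did not pass (edgeR adjusted p = 0.117), and clone 2 lay 2.01-fold above clone 3. RELA, the activating subunit of the canonical dimer, had 63.1, 64.6 and 67.0 CPM in the labelled clones, against 62.3 and 62.6 CPM. The difference was 0.05 ± 0.07 on the log2 scale (SE), and the clones lie just above the untreated values. Per kilobase of exon, NFKB1 was at 22.6 CPM, RELA at 11.9, NFKB2 at 8.96 and RELB at 6.53 as means of the labelled clones.

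Among the listed inhibitors, NFKBIA and TNFAIP3 fell, while the listed IkB genes other than NFKBIA did not pass. NFKBIA encodes the main cytoplasmic inhibitor and had 25.3, 29.4 and 27.3 CPM in the labelled clones, against 63.8 and 61.7 CPM in untreated replicates 1 and 2. It fell by 1.20 ± 0.09 on the log2 scale (SE; edgeR adjusted p = 0.00548). TNFAIP3, a ubiquitin-editing enzyme that shuts off signalling to IKK, had 23.0, 22.9 and 18.1 CPM in the labelled clones, against 63.7 and 62.6 CPM. The fall was 1.58 ± 0.11 on the log2 scale (SE; edgeR adjusted p = 0.00548), and in both genes all 3 clones were below both untreated values. NFKBIB, another cytoplasmic inhibitor, had 21.9, 21.1 and 23.9 CPM in the labelled clones, against 21.3 and 22.4 CPM, so the groups overlap. NFKBIE, of the same family, had 16.4, 15.2 and 16.6 CPM in the labelled clones, against 22.0 and 21.3 CPM, and did not pass (edgeR adjusted p = 0.112). BCL3, a nuclear IkB protein that binds the products of NFKB1 and NFKB2, had 4.69, 7.51 and 3.82 CPM in the labelled clones, against 12.4 and 13.0 CPM. Its groups did not overlap, and its log2 fold change of -1.26 ± 0.27 (SE) did not pass (edgeR adjusted p = 0.0831). The nuclear IkB gene NFKBIZ had 3.07, 5.93 and 5.10 CPM in the labelled clones, against 11.3 and 9.84 CPM (edgeR adjusted p = 0.101). TNIP1 and TNIP2 encode ubiquitin-binding partners of TNFAIP3. TNIP2 had 37.2, 34.2 and 39.8 CPM in the labelled clones, against 49.6 and 52.5 CPM (edgeR adjusted p = 0.0909), and TNIP1 had 157, 198 and 187 CPM, against 223 and 223 CPM. The deubiquitinase gene CYLD had 26.6, 44.7 and 29.8 CPM in the labelled clones, against 32.6 and 31.3 CPM, which overlap.

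Of the listed target genes for survival proteins, BCL2A1 and BIRC3 fell and the others did not pass. BCL2A1, a BCL2-family survival gene, had 2.93, 2.61 and 3.34 CPM in the labelled clones, against 17.3 and 19.1 CPM in untreated replicates 1 and 2. It fell by 2.62 ± 0.17 on the log2 scale (SE; edgeR adjusted p = 0.00453), a 6.16-fold lower level. BIRC3, a ubiquitin ligase gene of the TNF receptor complex, had 108, 112 and 86.4 CPM in the labelled clones, against 294 and 304 CPM. It fell by 1.56 ± 0.11 on the log2 scale (SE; edgeR adjusted p = 0.00548). Its paralog BIRC2 had 86.4, 93.6 and 80.7 CPM in the labelled clones, against 104 and 107 CPM, and did not pass. CFLAR, an inhibitor of caspase activation, had 7.62, 20.3 and 13.2 CPM in the labelled clones, against 16.0 and 15.9 CPM, so the untreated values lie inside the clones' range. SOD2, the mitochondrial superoxide dismutase gene, had 168, 157 and 189.8 CPM in the labelled clones, against 139 and 144 CPM, without overlap but without passing the test. Reads of paralogs such as BIRC2 and BIRC3 may be shared where sequence is near identical, and the strand of the libraries is not stated.

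Among the listed targets on the cell surface and secreted ones, CD83, ICAM1 and EBI3 fell. CD83, a marker of activated B and dendritic cells, had 67.8, 63.3 and 80.2 CPM in the labelled clones, against 128 and 131 CPM in untreated replicates 1 and 2. It fell by 0.88 ± 0.12 on the log2 scale (SE; edgeR adjusted p = 0.0271). ICAM1, an adhesion molecule gene, had 29.9, 29.4 and 30.0 CPM in the labelled clones, against 53.3 and 53.4 CPM, and fell by 0.85 ± 0.08 on the log2 scale (SE; edgeR adjusted p = 0.00938). EBI3, a cytokine subunit gene, had 2.29, 1.46 and 2.98 CPM in the labelled clones, against 7.58 and 7.91 CPM (log2 fold change -1.79 ± 0.31, SE; edgeR adjusted p = 0.0478). In each of the 3 genes every clone was below both untreated replicates. The chemokine gene CCL22 had 0 counts over the labelled clones, against 31 counts over untreated replicates 1 and 2. With 3 counts over the clones taken as the floor and the 31 as exact, it was 14.2-fold lower. It did not pass (edgeR adjusted p = 0.0547), and the floor covers counting error in the clones only. PLEK, a platelet and leukocyte phosphoprotein gene, was the highest of these genes per kilobase of exon, and had 457, 465 and 498 CPM in the labelled clones, against 583 and 592 CPM, without passing. The signalling genes TRAF2, MAP3K8 and the interferon regulator IRF1 had log2 fold changes of 0.00, 0.03 and -0.03, with overlapping groups. TNFRSF1B, a TNF receptor gene, had 1, 2 and 0 counts in the labelled clones, against 10 and 4 counts, and was too low to test. GADD45B, a stress-response target, had 4.95, 9.23 and 9.36 CPM in the labelled clones, against 11.9 and 11.5 CPM, and the kinase gene MAP3K14 had 14.1, 12.1 and 13.2 CPM, against 15.01 and 16.4 CPM. Neither passed, nor did IER3, a stress-inducible target at most at 0.441 CPM in these 5 libraries.

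**Figure D1:**
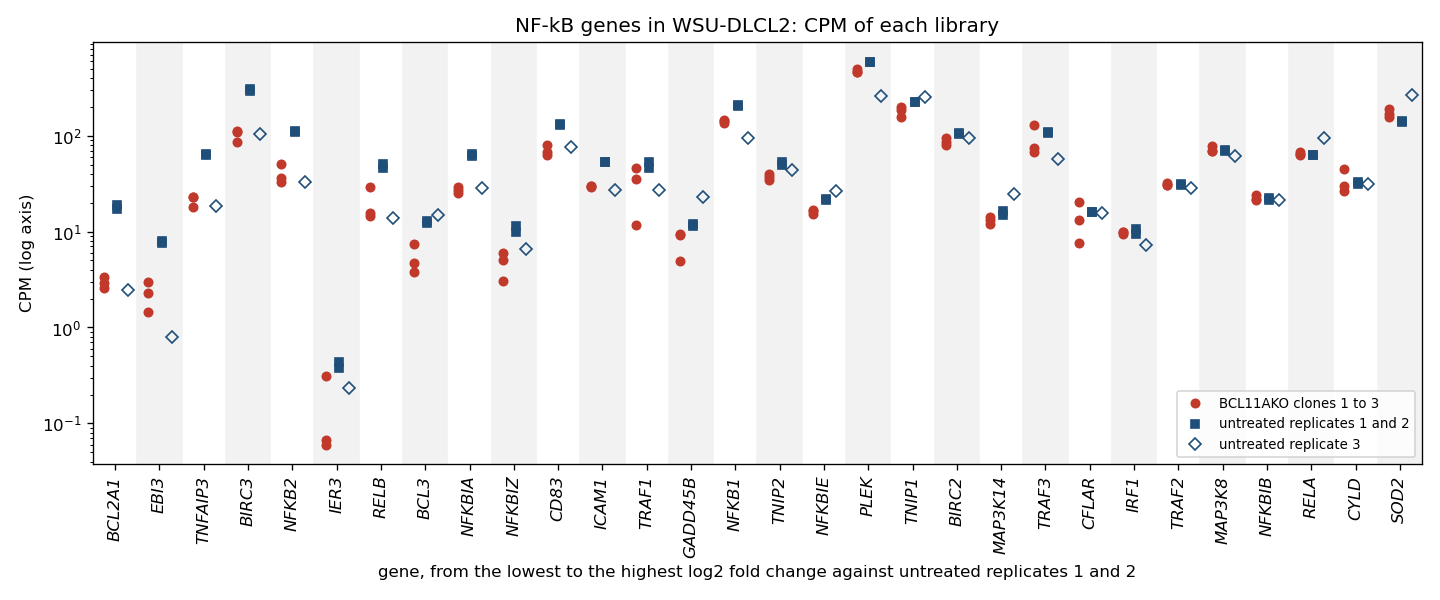
CPM of each of 30 NF-kB genes (y axis, log scale) in 3 labelled BCL11AKO clones (red circles), untreated WSU-DLCL2 replicates 1 and 2 (filled blue squares) and untreated replicate 3 (open diamonds). Each point is 1 library, and CCL22, TNFRSF1B and IL6 are left out for low counts. BCL2A1 sits at 2.61 to 3.34 CPM in the clones and 17.3 and 19.1 CPM in untreated replicates 1 and 2, with replicate 3 at 2.45 CPM, while RELA of replicate 3 lies above all other libraries.

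The labelled clones differed from one another more than untreated replicates 1 and 2 did. Pair by pair, the mean chi-square over genes was 20.3 to 40.9 between clones and 2.66 between these replicates. Over 29 NF-kB genes above 0.5 CPM in every clone, the median ratio of the highest to the lowest clone was 1.26, and that of the 2 untreated replicates was 1.04. The first ratio spans 3 libraries and the second 2, which by itself makes the first larger. Over 13660 genes of the same kind the medians were 1.23 and 1.05, so the spread of the NF-kB genes was near that of genes at large. The widest was TRAF1, an adaptor and target of NF-kB, with 11.8, 46.0 and 35.6 CPM in the labelled clones, a ratio of 3.91, against 53.0 and 46.5 CPM in untreated replicates 1 and 2. CFLAR followed with a ratio of 2.66, and TRAF3, an adaptor that keeps MAP3K14 low, was higher in clone 3 at 130.0 CPM than in clones 1 and 2 at 68.4 and 74.8 CPM. These 3 genes were named after their values were seen.

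With untreated replicate 3 included, no NF-kB gene passed in the labelled clones, and no gene of the 16152 tested did (0.0% in edgeR). At an unadjusted p under 0.05 there were 11 of the 30 NF-kB genes tested and 1117 genes in all, which is 6.92%. DESeq2 called 315 genes, among them the NF-kB genes BCL3 and NFKBIE, both lower. Of the 30 NF-kB genes, 24 had a fold change below 0, with a median of -0.47, against -0.01 over all genes. The groups did not overlap in 8 of the 30, against 16.6% of all genes: BCL3, NFKBIE, NFKBIZ, TNIP1, TNIP2, GADD45B, MAP3K14 and BIRC2. None of these 8 is among the 9 genes called without replicate 3. The smallest p belonged to BCL3, with a log2 fold change of -1.33 ± 0.28 (SE; edgeR adjusted p = 0.294). CCL22, with 0 counts in the labelled clones and 35 over the 3 untreated replicates, was 12.4-fold lower by the same floor and was too low to test. For BCL2A1 it became -2.13 ± 0.71 (SE; edgeR adjusted p = 0.591), and for NFKB2 -1.08 ± 0.46 (SE; edgeR adjusted p = 0.733).

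In the 9 genes called lower, replicate 3 of untreated WSU-DLCL2 was nearer to the mean of the labelled clones than to that of untreated replicates 1 and 2 each time, and below both replicates each time. BIRC3 had 104 CPM there, NFKBIA 28.2, CD83 75.8 and TNFAIP3 18.4, all inside the range of the 3 labelled clones. NFKB2 at 33.0 CPM, ICAM1 at 27.3, EBI3 at 0.801, NFKB1 at 93.9 and BCL2A1 at 2.45 were below all 5 other libraries. Over all genes tested, replicate 3 was nearer to the labelled clones in 58.1% and below both untreated replicates in 46.0%, and over the 281 genes called lower in 54.4% and 77.9%. Of the 22 NF-kB genes that were not called, 9 were nearer to the labelled clones. The genes of RELA and of 6 others went the other way and were higher in replicate 3 than in all 5 libraries beside it. Such positions are common in this library. Over all genes tested, 37.3% were above all 5 others in replicate 3 and 34.1% below them, against 22.6% and 35.5% of the NF-kB genes tested. RELA stood at 95.4 CPM, BCL3 at 14.8, NFKBIE at 26.3, SOD2 at 267, TNIP1 at 253, MAP3K14 at 24.4 and GADD45B at 22.8. In the canonical pair, replicate 3 thus had the lowest NFKB1 and the highest RELA of the 6 libraries. RELB, at 13.8 CPM, was below the lowest clone. Which label of this library is right was not tested.

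**Figure D2:**
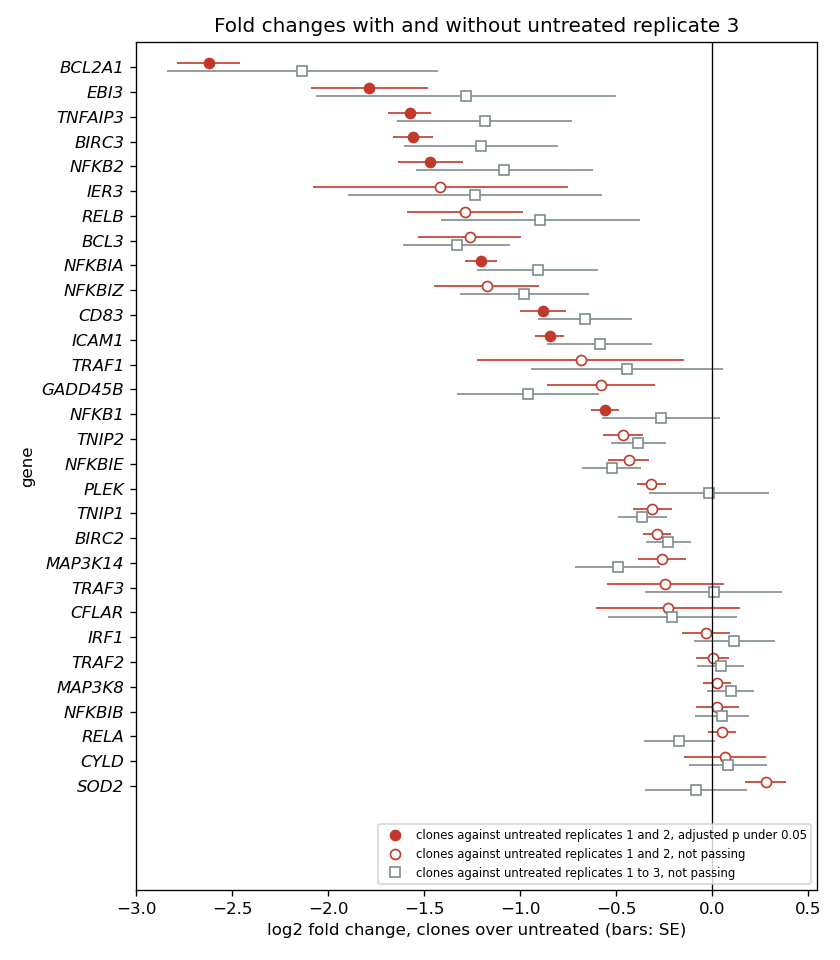
Log2 fold change of the labelled BCL11AKO clones over untreated WSU-DLCL2 (x axis, bars are SE) for 30 NF-kB genes (y axis). Red circles use untreated replicates 1 and 2 and are filled where the edgeR adjusted p is under 0.05, and grey open squares use replicates 1 to 3, where no gene passed. The 9 filled circles lie between -2.62 for BCL2A1 and -0.56 for NFKB1, each with a square nearer to 0, and CCL22 is left out because its fitted value is no bound.

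The promoters of the genes that fell together in the labelled clones are shown for 6 of the 9, those with a match to the kappaB consensus, the 10-letter binding motif of NF-kB dimers. Both strands were searched in windows of 250 bases before to 50 bases after each annotated gene start in RefSeq (GRCh38.p14, a build other than that of the counts), and overlapping matches were joined. Of the 31 listed genes in that table, 17 (54.8%) had a match, and by window it was 22 of 54 (40.7%), against 2075 of 35116 promoter windows (5.91%). As the list holds textbook targets of NF-kB, a raised share is a property of the choice, and a match is not a site shown to be bound. These 6 were chosen after their values were seen, and BCL2A1, ICAM1 and EBI3 had no match in these windows. Capitals mark the matches, and each sequence runs on the strand of its gene, 5′ to 3′:
NFKB1 (chr4:102501260-102501369, plus strand): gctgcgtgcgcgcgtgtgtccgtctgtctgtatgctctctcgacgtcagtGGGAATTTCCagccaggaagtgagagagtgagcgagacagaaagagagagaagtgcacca
NFKB2 (chr10:102394421-102394559, plus strand): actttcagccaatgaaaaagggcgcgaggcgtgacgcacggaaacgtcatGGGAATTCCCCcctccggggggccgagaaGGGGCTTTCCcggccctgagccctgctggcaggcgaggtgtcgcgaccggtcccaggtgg
NFKBIA (chr14:35404771-35404880, minus strand): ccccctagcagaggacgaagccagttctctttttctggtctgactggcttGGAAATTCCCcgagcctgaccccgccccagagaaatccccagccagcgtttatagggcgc
TNFAIP3 (chr6:137867142-137867263, plus strand): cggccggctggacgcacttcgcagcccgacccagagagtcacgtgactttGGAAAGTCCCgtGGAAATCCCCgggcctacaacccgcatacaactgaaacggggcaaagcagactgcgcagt
BIRC3 (chr11:102317235-102317408, plus strand): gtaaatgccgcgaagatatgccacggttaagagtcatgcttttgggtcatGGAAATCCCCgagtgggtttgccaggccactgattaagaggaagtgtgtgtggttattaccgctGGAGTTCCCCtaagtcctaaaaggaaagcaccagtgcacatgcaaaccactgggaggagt
CD83 (chr6:14117646-14117757, plus strand): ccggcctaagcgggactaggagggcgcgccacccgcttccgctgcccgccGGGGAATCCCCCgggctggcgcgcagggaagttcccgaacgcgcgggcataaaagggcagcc

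In NFKB1 the match begins 49 bases before the gene start, and in NFKBIA 81 bases before it. NFKB2, TNFAIP3 and BIRC3 hold 2 matches each in the stretch shown. Those of TNFAIP3 begin 67 and 55 bases before the start, those of NFKB2 107 and 78 bases before it, and those of BIRC3 199 and 135 bases before it. The capitals of CD83 run over 12 bases because matches overlap, and begin 76 bases before the start. A match was also found in genes that did not pass in the labelled clones, among them BCL3, NFKBIZ, TNIP1 and NFKBIB.

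In Karpas-422, NFKB1, NFKB2, RELB and TNFAIP3 were too low to test, and NFKBIA, at 1.41 to 2.05 CPM, could be tested. NFKB1 had 0.770, 0.337 and 0.699 CPM with A-485, against 0.366, 0.512 and 0.576 CPM untreated. NFKB2 had 0.385, 0.450 and 0.582 CPM with A-485, against 0.244, 0.256 and 0.144 CPM untreated. RELB had 0.128, 0.225 and 0.349 CPM with A-485 and was at 0 untreated. Its 6 counts over 3 libraries, taken as exact, are 1.82-fold higher against a floor of 3 counts. With no filter on low counts it was tested and did not pass (edgeR adjusted p = 0.0901). TNFAIP3 had 1.16, 0.112 and 0.349 CPM with A-485, against 0.611, 0.256 and 0.432 CPM untreated. In all, 18 of the 33 genes with a count were too low to test there, none above 1.41 CPM in any library. BCL3, TNFRSF1B, IER3, EBI3 and IL6 had a count of 0 in all 6 libraries. The others were NFKBIB, NFKBIZ, BIRC3, TRAF2, MAP3K14, BCL2A1, GADD45B, CCL22 and ICAM1. None of the 18 had more than 11 counts in a library.

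Of the 15 NF-kB genes that could be tested in Karpas-422, 7 rose with A-485, 5 fell and 3 did not pass. The genes that rose were RELA, CFLAR, CYLD, TRAF1, BIRC2, IRF1 and TNIP2, and those that fell were PLEK, TRAF3, MAP3K8, NFKBIE and SOD2. A-485 changed most genes tested in this line: 71.4% of 11846 passed, 37.6% higher and 33.7% lower (edgeR's quasi-likelihood test, Benjamini-Hochberg adjustment). The 12 calls among 15 NF-kB genes are near that background, and so are the 10 genes with groups that do not overlap, against 76.8% of all genes. The median log2 fold change was -0.15 over the 15 genes, against 0.08 over all. Fold changes are relative to TMM scaling, which takes most genes as level; library sizes alone raise the median over all genes by 0.41, and the share of calls that are higher is then 73.8% in place of 52.7%.

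RELA is the only subunit gene on the list that could be tested in Karpas-422. It had 13.0, 10.9 and 8.73 CPM with A-485, against 5.37, 3.46 and 4.89 CPM untreated, and rose by 0.84 ± 0.20 on the log2 scale (SE; edgeR adjusted p = 0.00203). All 3 treated libraries were above all 3 untreated ones. NFKBIA had 2.05, 1.80 and 1.63 CPM with A-485, against 1.83, 1.41 and 1.87 CPM untreated, and did not pass (log2 fold change -0.30 ± 0.28, SE; edgeR adjusted p = 0.380). NFKBIE had 29.6, 27.0 and 26.3 CPM with A-485, against 28.5, 26.5 and 27.5 CPM untreated, so its CPM overlap. Its call as lower (log2 fold change -0.40 ± 0.10, SE; edgeR adjusted p = 0.00228) comes with the scaling, and with library sizes alone the value is 0.0089 and does not pass. TNIP1 had 5.13, 5.40 and 7.22 CPM with A-485, against 5.62, 4.35 and 4.89 CPM untreated, and did not pass. TNIP2 had 8.47, 7.76 and 8.62 CPM with A-485, against 3.18, 5.25 and 4.89 CPM untreated. It rose by 0.50 ± 0.21 on the log2 scale (SE; edgeR adjusted p = 0.0425), a call that held under 4 of 11 alternatives. It was lost with DESeq2, its size factors, the replicate block, any treated library left out, and untreated replicate 1 left out, where the value was 0.26.

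CYLD, which removes the ubiquitin chains that activate IKK, had the largest rise among the NF-kB genes tested. It had 13.2, 18.0 and 16.4 CPM with A-485, against 4.76, 3.20 and 3.31 CPM untreated, and rose by 1.67 ± 0.19 on the log2 scale (SE; edgeR adjusted p = 2.93e-06). TRAF1 had 62.6, 62.2 and 64.0 CPM with A-485, against 30.1, 21.4 and 18.1 CPM untreated (log2 fold change 1.03 ± 0.12, SE; edgeR adjusted p = 6.19e-06). BIRC2 had 13.3, 11.5 and 11.4 CPM with A-485, against 3.30, 3.33 and 4.46 CPM untreated (log2 fold change 1.31 ± 0.18, SE; edgeR adjusted p = 2.00e-05). In these 3 genes the treated libraries were all above the untreated ones. TRAF3 and MAP3K8, a kinase gene downstream of IKK, went down. TRAF3 had 197, 184 and 178 CPM with A-485, against 211, 231 and 226 CPM untreated (log2 fold change -0.67 ± 0.07, SE; edgeR adjusted p = 6.64e-07). MAP3K8 had 23.5, 24.7 and 24.2 CPM with A-485, against 35.4, 30.2 and 30.9 CPM untreated (log2 fold change -0.82 ± 0.10, SE; edgeR adjusted p = 3.70e-06). Neither gene's groups overlap.

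Among the targets in Karpas-422, PLEK and CFLAR went opposite ways. PLEK had 1408, 1468 and 1448 CPM with A-485, against 3641, 3970.5 and 3790.2 CPM untreated, and fell by 1.81 ± 0.06 on the log2 scale (SE; edgeR adjusted p = 1.29e-11). CFLAR had 174, 178 and 179 CPM with A-485, against 82.1, 78.6 and 83.5 CPM untreated, and rose by 0.72 ± 0.06 on the log2 scale (SE; edgeR adjusted p = 6.78e-08). IRF1 had 2.82, 3.26 and 3.38 CPM with A-485, against 1.22, 1.15 and 0.432 CPM untreated, and rose by 1.31 ± 0.33 on the log2 scale (SE; edgeR adjusted p = 0.00256). No library of one group reaches the other in these 3 genes. SOD2 had 7.44, 7.42 and 6.40 CPM with A-485, against 8.18, 7.94 and 6.48 CPM untreated, and fell by 0.50 ± 0.16 on the log2 scale (SE; edgeR adjusted p = 0.0142). Its CPM overlap, and the call was lost with library sizes alone (-0.09), with DESeq2, without treated replicate 3 and without untreated replicate 2. CD83 had 3.85, 6.18 and 5.70 CPM with A-485, against 5.74, 5.50 and 5.32 CPM untreated, and did not pass (log2 fold change -0.47 ± 0.20, SE; edgeR adjusted p = 0.0526).

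**Figure D3:**
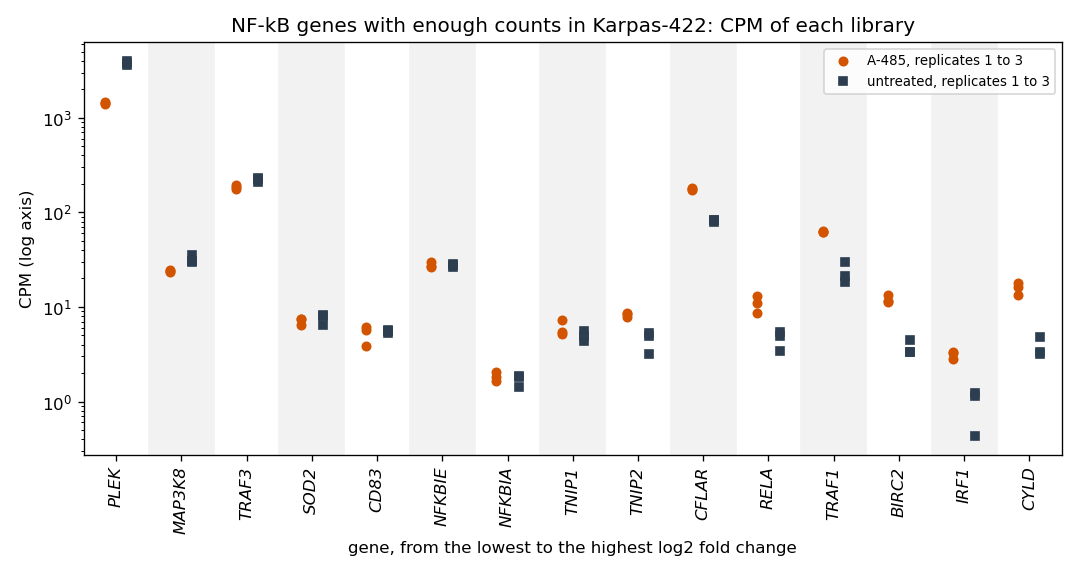
CPM of the 15 NF-kB genes with enough counts to test in Karpas-422 (y axis, log scale) with A-485 (orange circles) and untreated (dark squares), 1 point per library and 3 libraries per group. PLEK at the left runs between 1408 and 1468 CPM with A-485 and between 3641 and 3970.5 CPM untreated, while CYLD, IRF1, BIRC2 and TRAF1 at the right are higher with A-485 without overlap.

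The 5 NF-kB genes with a kappaB match in their promoter and the smallest p in Karpas-422 include genes that rose and genes that fell. CFLAR, CYLD and IRF1 rose and TRAF3 and MAP3K8 fell. As genes at large went both ways in this line, 5 genes cannot show whether a match goes with a direction. They are shown with the same windows, build and capitals as above:
CFLAR (chr2:201118569-201118678, plus strand): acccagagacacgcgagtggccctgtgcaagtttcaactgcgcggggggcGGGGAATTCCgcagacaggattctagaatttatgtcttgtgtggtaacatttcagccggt
CYLD (chr16:50741847-50741956, plus strand): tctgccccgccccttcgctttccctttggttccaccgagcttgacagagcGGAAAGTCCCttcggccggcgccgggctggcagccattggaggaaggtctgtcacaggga
IRF1 (chr5:132490764-132490873, minus strand): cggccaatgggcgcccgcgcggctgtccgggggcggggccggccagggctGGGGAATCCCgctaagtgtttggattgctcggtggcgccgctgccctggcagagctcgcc
TRAF3 (chr14:102777366-102777475, plus strand): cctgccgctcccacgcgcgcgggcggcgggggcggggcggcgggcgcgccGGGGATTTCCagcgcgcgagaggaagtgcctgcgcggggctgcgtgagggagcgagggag
MAP3K8 (chr10:30433942-30434051, plus strand): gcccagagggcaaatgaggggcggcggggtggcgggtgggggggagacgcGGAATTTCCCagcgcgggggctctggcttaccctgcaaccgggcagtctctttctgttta

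The match of TRAF3 begins 33 bases before its gene start, that of IRF1 50 bases before it and that of CFLAR 97 bases before it. For CYLD and MAP3K8, which have several annotated starts, matches lie in more than 1 window, and the stretch shown is from 1 of them. PLEK, with the smallest p of the NF-kB genes in this line, had no match in its windows.

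Beside both Karpas-422 groups, WSU-DLCL2 with A-485 held far more reads of several targets, at like depth. Its 3 libraries had 14.1% to 14.6% of reads unaligned, against 2.51% to 2.86% in the 6 Karpas-422 libraries, and the part of this in the levels was not tested. No test was made, since no shallow library of untreated WSU-DLCL2 was analysed. CD83 had 576, 560.5 and 615 CPM there, against at most 6.18 CPM in any Karpas-422 library. BIRC3 had 299.6, 264 and 298 CPM, against at most 1.12 CPM in Karpas-422. TNFAIP3 had 52.3, 51.5 and 52.0 CPM and ICAM1 34.8, 41.8 and 40.2 CPM in WSU-DLCL2 with A-485, against at most 1.16 and 0.385 CPM in Karpas-422. EBI3 had 2.99, 5.79 and 3.42 CPM and BCL3 5.83, 7.34 and 5.81 CPM, and both had no count in Karpas-422. These 6 genes, given for their higher levels, do not overlap between the lines. The share of all genes without overlap was not computed, so this is not shown to be particular to NF-kB genes. CFLAR was lower, with 17.3 to 20.03 CPM in WSU-DLCL2 with A-485, against 174 to 179 CPM in Karpas-422 with A-485. TRAF1 was lower too, with 6.70 to 9.27 CPM in WSU-DLCL2 with A-485, against 62.2 to 64.0 CPM in Karpas-422 with A-485.

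Of the subunit genes in WSU-DLCL2 with A-485, NFKB1 had 14.6, 12.7 and 13.4 CPM, NFKB2 2.84, 8.89 and 4.47 CPM and RELB 1.49, 1.13 and 0.744 CPM. RELA had 9.42, 10.3 and 9.23 CPM, inside the range of Karpas-422 with A-485. NFKBIA had 6.28, 5.64 and 4.17 CPM, and NFKBIE 44.4, 65.6 and 51.5 CPM. TRAF2, NFKBIB and MAP3K14 were at most 1.41 CPM in all 9 shallow libraries.

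**Figure D4:**
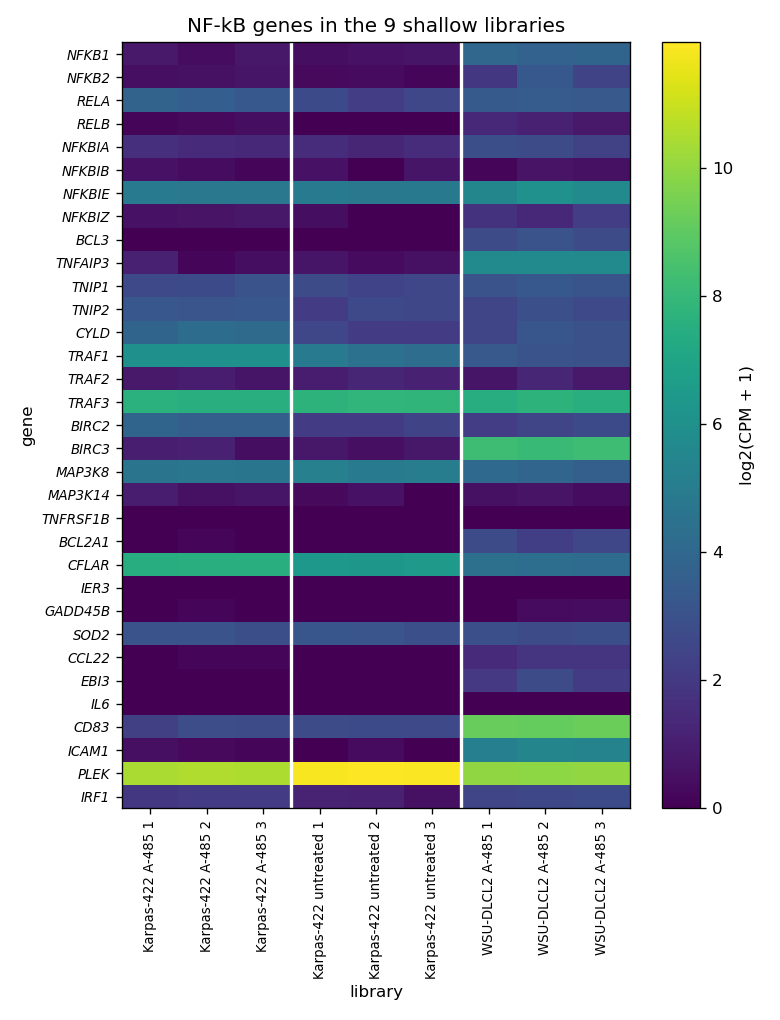
Level as log2(CPM + 1), by color, of all 33 NF-kB genes with a count (rows) in the 9 shallow libraries (columns): Karpas-422 with A-485, Karpas-422 untreated and WSU-DLCL2 with A-485, 3 libraries each, set apart by white lines. CD83, BIRC3, TNFAIP3 and ICAM1 are bright in the 3 WSU-DLCL2 columns and dark in the 6 Karpas-422 columns, where PLEK, TRAF3 and CFLAR are the brightest rows.

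The rest of the pathway was read from 5 lists of genes that are not among the 35. In the labelled clones against untreated replicates 1 and 2, none of 13 receptor and adaptor genes, 10 genes of B-cell receptor signalling to NF-kB or 14 genes of the IKK complex and its ubiquitin machinery passed, with median log2 fold changes of 0.02, 0.04 and 0.07. Of 8 other subunits and nuclear regulators, NFKBID, a nuclear IkB gene, was the only one called. It had 8.95 ± 1.44 CPM in the labelled clones (SD, n = 3) and 18.3 ± 1.75 CPM in untreated replicates 1 and 2 (SD, n = 2), and fell by 1.04 ± 0.16 on the log2 scale (SE; edgeR adjusted p = 0.0339). REL, the subunit gene most tied to B cells, had 176, 186 and 148 CPM in the labelled clones, against 176 and 168 CPM. Of 25 other targets tested, 12 fell, against 1.69% of all genes, none rose, and the median was -0.90. The lists were chosen with earlier results of these data known, and replicate 3 was left out knowing that it resembles the clones. The share among these targets is therefore not independent of the data.

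The 4 of these other targets with the smallest p were LTA, CD80, FAS and PIM1. LTA, the lymphotoxin gene, had 36.9 ± 1.46 CPM in the labelled clones (SD, n = 3) and 91.4 ± 1.38 CPM in untreated replicates 1 and 2 (SD, n = 2), with a log2 fold change of -1.32 ± 0.07 (SE; edgeR adjusted p = 0.00299). CD80, a costimulatory ligand, had 0.842 ± 0.334 CPM in the labelled clones and 11.1 ± 0.558 CPM untreated, with a log2 fold change of -3.73. FAS, a death receptor, had 1.92 ± 0.763 CPM in the labelled clones and 19.1 ± 0.971 CPM untreated (log2 fold change -3.33). The kinase gene PIM1 had 3.22 ± 0.844 CPM in the labelled clones and 12.5 ± 0.107 CPM untreated (log2 fold change -1.96). STX11, CCR7, BCL2L1, IRF4, CXCR5, JUNB, KLF6 and IL2RA were also called lower. With untreated replicate 3 included none of the 25 passed, and their median was -0.84. That library was nearer to the labelled clones in 9 of the 12 called targets and below both untreated replicates in 11. LTA stood at 37.9 CPM there, against 90.4 and 92.4 CPM in untreated replicates 1 and 2. CXCR5 went the other way, with 3.72 CPM in replicate 3, against 0.831 to 1.35 CPM in replicates 1 and 2, and was above all 5 other libraries.

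In Karpas-422, where 71.4% of all genes passed, the same lists held calls in both directions at shares below that background, except for 8 of 10 genes of B-cell receptor signalling. Of 10 receptor and adaptor genes tested 3 rose and 2 fell with A-485, of 10 genes of B-cell receptor signalling 2 rose and 6 fell, and of 13 IKK and ubiquitin genes 4 rose and 2 fell. MYD88, the adaptor of Toll-like receptors, had 9.37 ± 0.278 CPM with A-485 and 1.03 ± 0.272 CPM untreated (SD, n = 3 each; log2 fold change 2.75). TNFRSF17, a receptor of the plasma cell lineage, had 3.33 ± 0.583 CPM with A-485 and 12.3 ± 1.07 CPM untreated (log2 fold change -2.28). MAP3K7, the kinase that activates IKK, had 38.6 ± 3.40 CPM with A-485 and 3.82 ± 1.08 CPM untreated (log2 fold change 2.91), and the kinase gene BTK had 91.3 ± 3.94 CPM with A-485 and 151 ± 7.82 CPM untreated (log2 fold change -1.14). IKBKB, a catalytic subunit of IKK, had 40.1 ± 0.277 CPM with A-485 and 7.54 ± 3.38 CPM untreated (log2 fold change 1.99). These 5 genes passed.

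Among other subunits and nuclear regulators, 3 of 8 rose in Karpas-422 and 1 fell, against 37.6% of all genes higher and 33.7% lower. REL had 339.8, 382 and 373 CPM with A-485, against 99.7, 135 and 144 CPM untreated, and rose by 1.12 ± 0.15 on the log2 scale (SE; edgeR adjusted p = 0.000507). All 3 treated libraries were above all 3 untreated ones. CREBBP, 1 of the targets of A-485, had 115 ± 4.69 CPM with the inhibitor and 65.9 ± 2.08 CPM untreated (SD, n = 3 each), a log2 fold change of 0.40. EP300, the other one, had 1813 ± 75.9 CPM with the inhibitor and 1268 ± 197 CPM untreated (SD, n = 3 each), and did not pass (log2 fold change 0.10 ± 0.13, SE; edgeR adjusted p = 0.498). In CPM its treated libraries, at 1766 to 1901, were all above the untreated ones, at 1045 to 1419. The fold change is relative to TMM scaling, so it does not show that EP300 RNA was level. Of 14 other targets tested, 3 rose and 4 fell, with a median of 0.03, so calls were again fewer than among all genes. TNF, a target and an activator of the pathway, had 986, 870 and 871 CPM with A-485, against 239, 210.5 and 203 CPM untreated (log2 fold change 1.66 ± 0.06, SE). LTA had 26.8, 20.1 and 23.9 CPM with A-485, against 4.76, 5.38 and 7.19 CPM untreated (log2 fold change 1.63 ± 0.18, SE). TNF, LTA and LTB, genes of the TNF family that neighbour each other, were the 3 that rose, and PIM1 fell by 1.22 on the log2 scale.

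**Figure D5:**
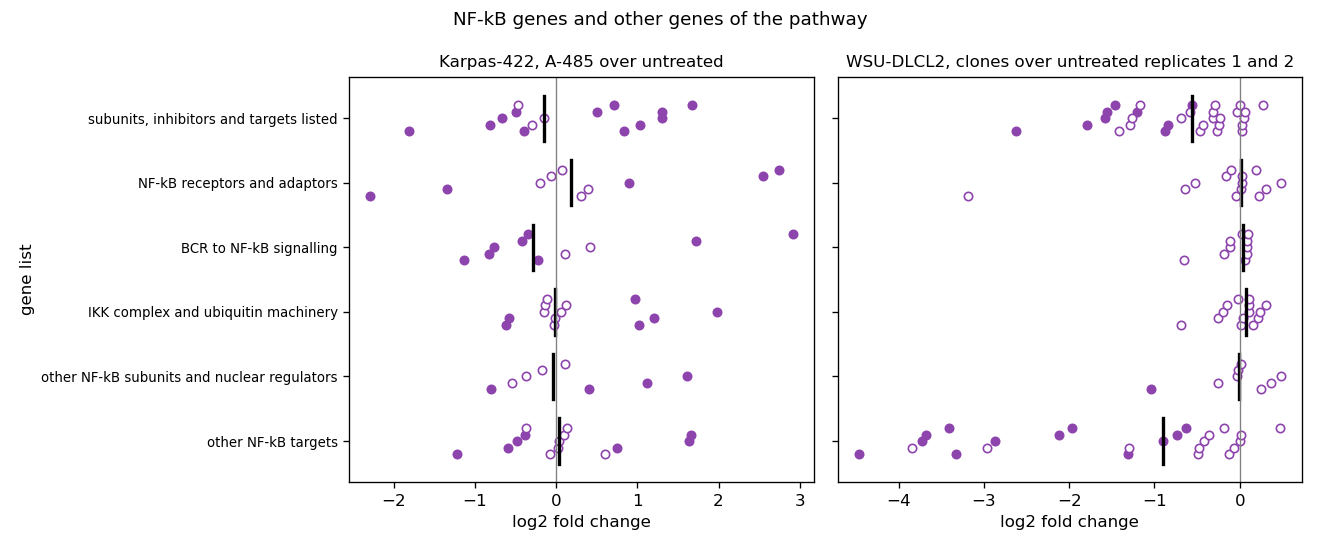
Log2 fold change (x axis) of each tested gene in the listed NF-kB genes and in 5 further lists (y axis), for Karpas-422 with A-485 over untreated (left) and for labelled BCL11AKO clones over untreated WSU-DLCL2 replicates 1 and 2 (right). Each point is a gene, filled where the edgeR adjusted p is under 0.05, and black bars are medians. On the right, filled points lie below 0 in the top row (median -0.56) and in the bottom row of other targets (median -0.90), with 1 in the row of other subunits, and CCL22 is not drawn.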

How the data were processed

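RNA of 15 libraries was sequenced, and the authors deposited raw counts of reads per gene, which were not normalized before deposit, per the file values. Per the submitters' processing notes, STAR 2.5.3a, RSEM and the genome build GRCh37 (hg19) were used. Neither the counting program nor the annotation or strand is named there. Symbols came from a gene name table and GENCODE 29. The 11151 genes without one held 0.862% of the counts, and the 5 summary lines of each file, 27.3% to 70.2% of its reads, stayed out of library sizes and tests.

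CPM are counts scaled by the library total of counts in genes. Comparisons were tested, two-sided, with edgeR 4.0.16 in R 4.3.3 (TMM, filterByExpr, robust quasi-likelihood fits, Benjamini-Hochberg adjustment over the genes kept, threshold 0.05), and the method was tested on simulated data. Standard errors were derived from each fold change and its F statistic. Alternatives were DESeq2 1.42.0, its size factors, library sizes alone, no filter, a replicate block and each library left out. The genes and lists were chosen with earlier results of these data known. Named in full were the subunits, NFKBIA, TNFAIP3 and the 12 tested genes of smallest p in each comparison, with up to 4 genes per further list, and other genes to complete the account. No pair of libraries was counted as 1 sample. The lowest mean chi-square, from genes whose pair of counts reached 20, was 1.20, for replicates 2 and 3 of Karpas-422 with A-485. Counting error alone gives about 1, so this pair may be technical replicates, and p-values in Karpas-422 may be too small. Untreated WSU-DLCL2 replicates 1 and 2 stood at 2.66 at greater depth, where a given spread adds more to this measure. Whether they are technical replicates was not tested, and p-values of the labelled clones may be too small as well. Runs of untreated WSU-DLCL2 replicate 3 were used as 1 library, grouped by title. Floors cover counting error in the group at 0 only and take the count of the other group as exact. The standard errors also take in the spread between the libraries compared.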

Additional observations from a re-analysis of the deposited data

How the results depend on the processing

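In Karpas-422, 18 genes had too few counts to test. For the labelled clones against untreated replicates 1 to 3, DESeq2 called 315 genes and 2 NF-kB genes, no filter on low counts gave 20 genes, and leaving out 1 library gave 0 to 351 genes and 0 to 9 NF-kB genes. Against untreated replicates 1 and 2, 351 genes became 1153 with DESeq2 and 835 with no filter, and the 9 NF-kB genes 16 with DESeq2. Leaving out 1 library gave 1 to 3020 genes and 0 to 19 NF-kB genes, the high end without labelled clone 2 and the low end without untreated replicate 1 or 2, where the lone untreated library is assumed to vary like the clones. Without labelled clone 1 there were 825 genes, and without clone 3 there were 92. In Karpas-422, the log2 fold change of NFKBIE was 0.0089 with library sizes alone, the single reversed call among 804 values of NF-kB genes under alternatives. A further 29 values changed sign without passing in either setting and were not counted as reversed. The causes were not tested.

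Replicates share numbers across groups. Same-numbered samples deviated together weakly or not at all. Correlations were -0.04 to 0.06 in Karpas-422, 0.03 to 0.23 with untreated replicates 1 to 3 and -0.08 to -0.03 with replicates 1 and 2. The highest, 0.23, belonged to number 3. With replicates 1 and 2 alone, the untreated deviations mirror each other, so those values say little. Pairing is not shown, and the numbers are not taken to pair samples. With a replicate block, 8250 genes and 11 NF-kB genes passed in Karpas-422, and 89 genes and 6 NF-kB genes against untreated replicates 1 and 2, where ICAM1, EBI3 and NFKB1 no longer passed.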
